A study of Drosophila melanogaster with 3 samples.

Results

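The brwl protein of Drosophila melanogaster, encoded by the gene also called CG3838, was mapped by chromatin immunoprecipitation and sequencing (ChIP-seq) at the promoters of genes that have no divergent partner. A peak is 1 summit of the thresholded list made from the 3 replicates together. Of its 2239 peaks, 1272 had a summit no more than 500 bp from a transcription start site (TSS) in the Ensembl annotation. Of these promoter peaks, 731 (32.6% of all peaks) lay at genes without a divergent partner, meaning that the nearest protein-coding TSS had no other protein-coding TSS within 1000 bp on the other strand, transcribed away from it. The other 541 promoter peaks lay at divergent gene pairs. Positions were counted from the nearest protein-coding TSS along the strand of its gene, and a summit was called upstream where that number was below 0 and downstream otherwise. By this count 590 of the 731 summits were upstream and 141 were downstream.

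All samples belonged to 1 group of 3 biological replicates. Each was a collection of whole embryos, male and female together, 0 to 24 h old. They came from a stable transgenic line, CG3838-GFP, that carries CG3838 with green fluorescent protein (GFP) at its C-terminal end, and the precipitating antibody was against GFP. Embryos of all stages and cell types were thus mixed, and a line without the tagged protein was not analysed here. Depth is unknown, as no read counts come with the lists. Signals are values that the authors' caller assigned to regions, and the scale is not stated in the labels.

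Core promoters are the short stretches around a TSS where RNA polymerase II assembles, and in Drosophila they carry elements such as the TATA box, the Initiator and the DRE. Divergent promoters lie between a pair of genes transcribed away from each other and serve both, whereas the genes described here share theirs with no other protein-coding gene transcribed away within that distance, although some have a non-coding gene there. GAGA repeats are bound by GAGA factor, which keeps promoter chromatin open, and the DRE is bound by Dref, a factor of housekeeping genes.

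Windows of some of the named peaks that hold GAGA, the DRE or the core of the DRE are shown. GAGA and the DRE were among the motifs that differed most clearly from divergent pairs, and other motifs are not marked. GAGA was searched as GAGAG and the DRE as TATCGATA, with its core CGATA as a motif of its own, all on both strands, and every DRE contains its core. The sequences are from the RefSeq copy of dm6, read 5′ to 3′ along the strand of the gene, and capitals mark these motifs. The upstream windows reach 100 bp to each side of the summit, shortened where a protein-coding exon begins. They lie at chr2L:9568333-9568533 on the plus strand for brwl, chr3L:19590525-19590721 on the minus strand for CG14100, chr3R:24134692-24134830 on the plus strand for Sec10 and chr3R:12449054-12449254 on the plus strand for CG18549.
brwl: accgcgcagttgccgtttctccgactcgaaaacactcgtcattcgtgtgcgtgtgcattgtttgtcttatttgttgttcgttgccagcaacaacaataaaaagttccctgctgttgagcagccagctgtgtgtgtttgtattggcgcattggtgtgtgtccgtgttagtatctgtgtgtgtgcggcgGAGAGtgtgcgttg
CG14100: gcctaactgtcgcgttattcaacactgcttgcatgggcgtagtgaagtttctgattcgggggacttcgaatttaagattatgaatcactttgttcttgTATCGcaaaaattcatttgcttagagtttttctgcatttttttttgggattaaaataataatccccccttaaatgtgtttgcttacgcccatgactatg
Sec10: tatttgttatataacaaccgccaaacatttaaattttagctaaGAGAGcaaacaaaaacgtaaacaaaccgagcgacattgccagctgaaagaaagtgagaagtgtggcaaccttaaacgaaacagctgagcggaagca
CG18549: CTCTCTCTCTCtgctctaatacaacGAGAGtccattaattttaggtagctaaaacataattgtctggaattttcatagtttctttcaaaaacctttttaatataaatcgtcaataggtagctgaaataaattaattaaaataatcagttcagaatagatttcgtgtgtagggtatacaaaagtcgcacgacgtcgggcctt

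For peaks with a downstream summit, 30 bases around 1 motif are shown. They lie on the minus strand at chr3L:20296984-20297013 for FRG1, chrX:2137878-2137907 for ph-p, chr3L:682021-682050 for CG3386 and chr3L:12773542-12773571 for Hip1. The DRE of FRG1 and a further core beside it lay 31 to 17 bp upstream of the TSS although the summit was 4 bp downstream of it, and the DRE of Hip1 lay 13 to 20 bp downstream.
FRG1: tattggtaagaTATCGATAgcCGATAgacc
ph-p: tttcattttactTATCGtaacattgtttat
CG3386: ttgtcgcttgagGAGAGcataacgccggtc
Hip1: ctattaactttTATCGATAaaggaaaacaa

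The first question was on which side of the TSS the summits lay. Summits were upstream in 80.7% of the 731 peaks (exact Clopper-Pearson 95% interval 77.7% to 83.5%), whereas upstream sequence made up 50.5% of the bases that could have held such a summit (exact binomial test, two-sided, p = 1.60e-64). Taken alone, the strongest 2239 regions of each replicate gave 732, 728 and 727 such peaks. Their upstream shares were 77.9%, 78.3% and 83.8%, a mean of 79.98% ± 3.29 (SD, n = 3). Every replicate was thus above the share of the bases by far more than the spread between replicates. Peaks are not independent replicates, so the binomial p-value and its interval describe the list and cover counting error only.

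The upstream share was higher among strong peaks. With the peaks ranked by signal and split into 4 equal bins, it was 86.3% in the strongest bin, 81.4% in each of the next bins and 73.8% in the weakest. Regions of the authors' pooled list that ranked below its strongest 2239 by signal, classed by the same rule, were upstream in 61.3% of 3103 cases. The share also varied by chromosome arm, with 88.4% on 2L, 74.7% on 2R, 79.1% on 3L, 81.6% on 3R and 80.5% on X, and 3 of the 4 peaks on chromosome 4 were upstream. These differences between bins and between arms were not tested.

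At divergent pairs the upstream share was close to this. It was 80.7% at genes without a divergent partner and 78.7% at divergent pairs (odds ratio 1.13, Fisher's exact test, p = 0.397). A summit between the TSSs of a pair is upstream of both by construction, and the upstream bases at pairs were not counted. In the replicates' own lists the share was higher by 2.28, 3.24 and 2.48 percentage points at genes without a partner, a mean of 2.67 ± 0.510 (SD, n = 3). The difference had the same sign in 3 of 3 replicates and exceeded its own spread between them, a sign pattern for which 3 replicates cannot give a two-sided exact permutation p below 0.25. Among peaks found in both replicate 2 and replicate 3 the odds ratio was 1.56 (p = 0.0198), among those found in both replicate 1 and replicate 3 it was 1.45 (p = 0.0383), and among those found in both replicate 1 and replicate 2 it was 1.32 (p = 0.105), by Fisher's exact test. With a window of 250 bp around the TSS it was 0.997 (Fisher's exact test, p = 1).

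**Figure D1:**
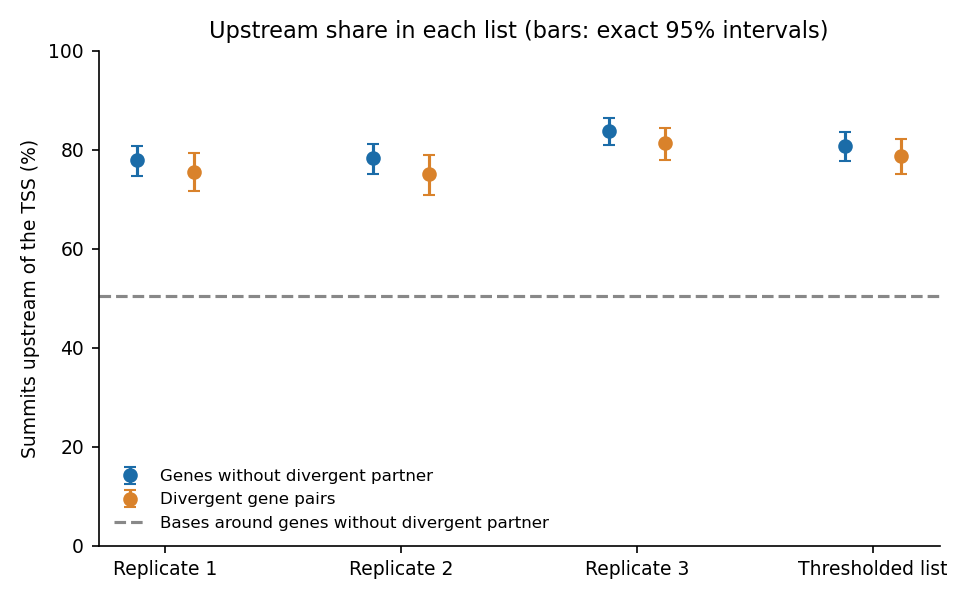
Share of summits upstream of the nearest protein-coding TSS, in percent, in the strongest 2239 regions of each replicate and in the thresholded list, at genes without a divergent partner and at divergent gene pairs. Points are shares, bars are exact 95% intervals, and the dashed line is the 50.5% of bases around genes without a partner that lie upstream. At genes without a partner all shares lie well above the line. No such line was computed for divergent pairs, where a summit between the TSSs is upstream of both by construction. The intervals of both promoter classes overlap in every list.

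The distance from the TSS set the promoter classes apart. Among the 664 peaks with a protein-coding TSS within 500 bp, the median position was -154 bp, with quartiles at -266 and -49 bp, against a median of -79.5 bp and quartiles at -121 and -13.5 bp for the 538 such peaks at divergent pairs. The replicates gave medians of -142, -141 and -175.5 bp at genes without a partner and of -63, -65 and -88.5 bp at divergent pairs. The difference was -79, -76 and -87 bp, a mean of -80.7 ± 5.69 bp (SD, n = 3), so it was many times its spread between replicates. With 3 replicates an exact sign-flip permutation test cannot give a two-sided p below 0.25, and none is claimed. The gap between the genes of a divergent pair limits how far upstream a summit can lie, by construction, since a summit past its middle is nearer to the partner.

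Positions were spread more widely at genes without a partner. The interquartile range was 217 bp for these and 107.5 bp for divergent pairs. Between 500 and 301 bp upstream lay 18.7% of the summits at genes without a partner and 0.558% of those at divergent pairs. The last 100 bp before the TSS held 18.7% at genes without a partner and 42.8% at divergent pairs. Upstream summits had a median of -185 bp and downstream summits of 102 bp.

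**Figure D2:**
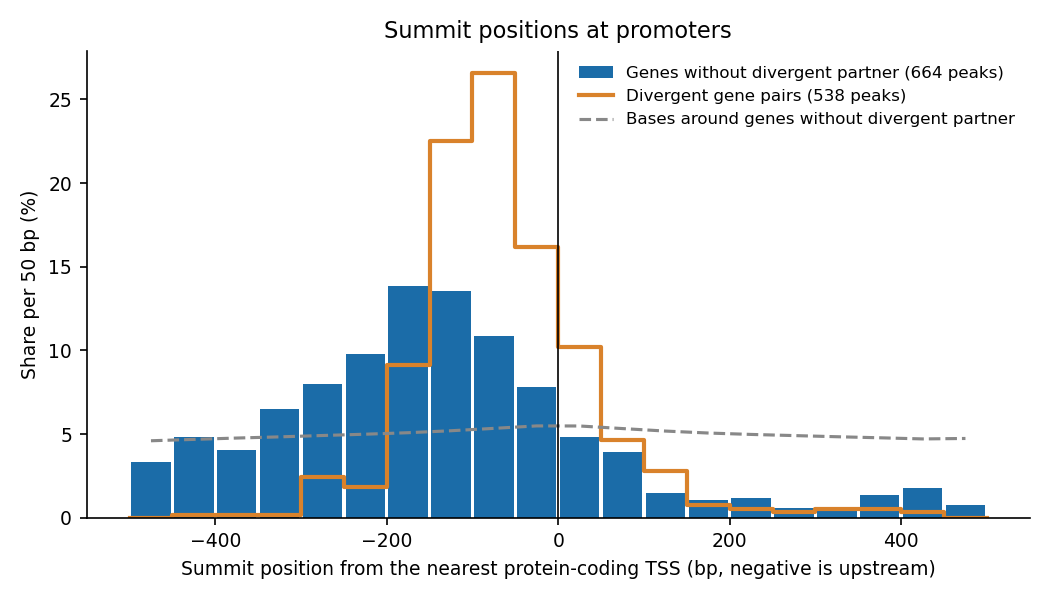
Share of summits per 50 bp, in percent, against the position from the nearest protein-coding TSS in bp, for 664 peaks at genes without a divergent partner (bars) and 538 peaks at divergent pairs (stepped line). The dashed line is the share of the bases around genes without a partner. The bars are highest between 200 and 100 bp upstream and stay above 3% out to 500 bp, whereas the stepped line is highest between 100 and 50 bp upstream.

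Summits of a peak lay close together in the replicates, in part by construction. In each replicate list the overlapping region with its summit nearest to that of the peak was taken. For the 726 peaks with an overlapping region in every replicate list, the SD of the summit position over the 3 replicates had a median of 29.5 bp and quartiles of 15.9 and 52.6 bp. Of these, 677 (93.3%) lay on the same side of the TSS in all 3 replicates. The share was 94.9% for upstream summits and 86.4% for downstream summits, and 33 of the 49 peaks whose side differed lay within 50 bp of the TSS.

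The sides differed in what the annotation gives at the summit, in part by construction, since the bases just past a TSS lie in its transcript. The share of each class among the bases that could have held a summit was not computed. Of the 590 upstream summits, 304 (51.5%) were intergenic, 216 (36.6%) were in introns, 30 in non-coding exons, 23 in 5′ untranslated exons, 15 in 3′ untranslated exons and 2 in coding exons. Of the 141 downstream summits, 87 (61.7%) were in 5′ untranslated exons, 35 in introns, 14 in non-coding exons and 5 were intergenic, with 0 in coding exons. An upstream summit can lie within its own gene where that gene has a further TSS, and 203 of them (34.4%) did, while 74 (12.5%) lay inside another protein-coding gene. Coding exons thus held 2 of the 731 summits.

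A small group of the peaks was placed at a promoter by a non-coding TSS. For 67 of the 731 peaks the TSS within 500 bp was that of a non-coding gene, in 64 cases of the class of longer non-coding RNAs, and the nearest protein-coding TSS was 565 to 49272 bp away, with a median of 2649 bp. Of their summits, 38 were upstream and 29 downstream of the non-coding TSS. The peak near hll, with a signal of 1258, belongs here, since it lay 41 bp from the TSS of lncRNA:CR31840 and 2861 bp upstream of that of hll. Leaving these peaks out gave upstream shares of 82.5% at genes without a partner and 79.2% at divergent pairs (Fisher's exact test, p = 0.160).

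Upstream peaks had a higher median signal in every replicate. The thresholded signal had a median of 157.2 for upstream summits and 138.3 for downstream summits. In replicate 1 the medians were 46.1 upstream and 44.0 downstream, in replicate 2 they were 61.2 and 54.5, and in replicate 3 they were 53.6 and 43.8. The difference of the median log2 signals, upstream minus downstream, was 0.07, 0.17 and 0.29 in the replicates, a mean of 0.18 ± 0.11 (SD, n = 3). It was positive in 3 of 3 replicates, which gives an exact sign-flip permutation p of 0.25, the smallest that 3 replicates allow. The strongest 500 peaks of the genome, 22.3% of all peaks, held 29.7% of the upstream peaks (175) and 17.7% of the downstream peaks (25). Among the strongest 100 were 36 upstream and 4 downstream summits.

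Upstream peaks were also found in every replicate more often. Of the upstream peaks, 354 (60%) were among the strongest 2239 regions of all 3 replicates, against 64 (45.4%) of the downstream peaks (odds ratio 1.80, Fisher's exact test, p = 0.00178). By replicate the shares were 83.1%, 85.4% and 79.7% for upstream peaks and 81.6%, 80.1% and 62.4% for downstream peaks. The gap was largest in replicate 3. Counted in replicates 1 and 2 alone, the odds ratio was 1.22 (Fisher's exact test, p = 0.348), so the call rests on replicate 3. Peaks of genes without a partner and those of divergent pairs were found in all 3 replicates at 57.2% and 56.4% (Fisher's exact test, p = 0.775).

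**Figure D3:**
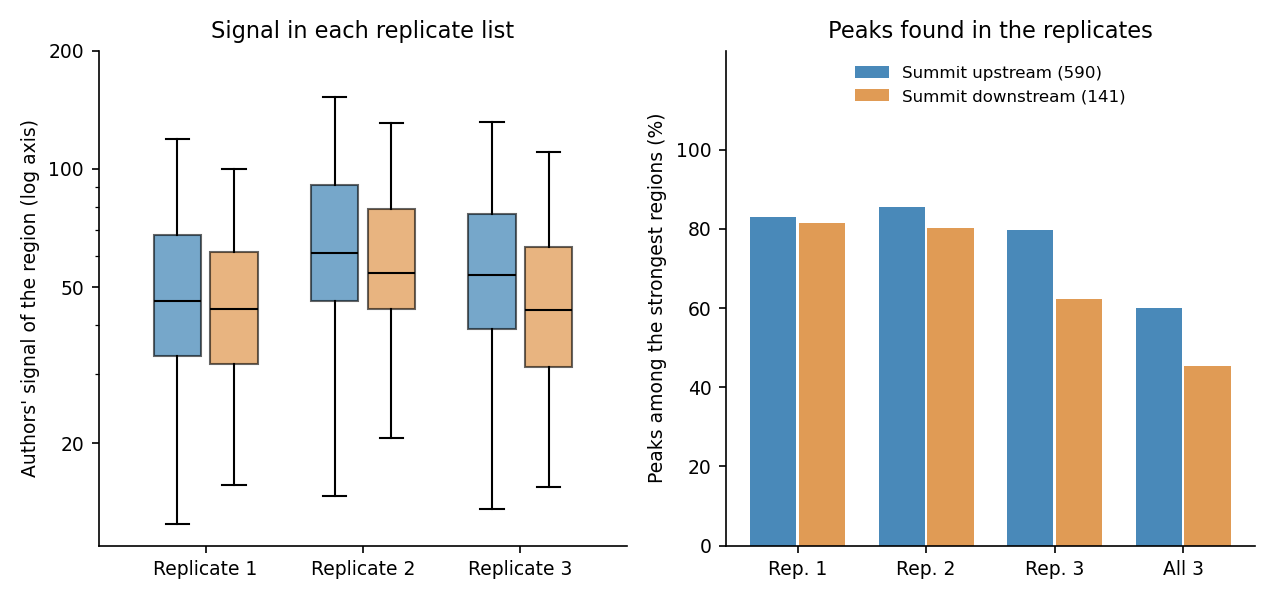
Left, the authors' signal in each replicate list on a log axis for peaks with an upstream or a downstream summit (line, median; box, quartiles; whiskers, up to 1.5 box lengths; points beyond not drawn). Right, percent of 590 upstream and 141 downstream peaks found among the strongest 2239 regions of each replicate and of all 3. Upstream medians are higher in each replicate, and the gap on the right is widest for replicate 3 and for all 3 together.

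The strongest peak of the thresholded list lay at the promoter of brwl itself, the gene whose product carries the tag. Its region ranked 1 in the lists of replicates 1 and 2 and 23 in that of replicate 3, where the region of CG14100 ranked 22. Gene brwl (FBgn0032130) has its first TSS on dm6 at chromosome 2L, position 9568890, on the plus strand. Summits lay 457 and 221 bp upstream and 61 bp downstream of it, with signals of 1796, 881 and 1448. A further summit lay 468 bp upstream of the other brwl TSS, with a signal of 373. The first summit had region signals of 694.8, 859.8 and 408.4 in replicates 1, 2 and 3, and the downstream one had 612.2, 691.3 and 223.8. In replicates 1 and 3 the summits at -457 and -221 bp shared 1 region. The part that the transgene copy of the locus has in these signals was not tested. Without the peaks within 10 kb of brwl the upstream share was 80.7%.

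Other strong upstream peaks lay at genes with several known roles. CG14100 had a signal of 1333 with its summit 97 bp upstream, and region signals of 365.3, 550.8 and 411.8 in replicates 1, 2 and 3. Sec10, which encodes a subunit of the exocyst, had 391.9, 419.9 and 223.0, with the summit 39 bp upstream. For tou, the gene of a chromatin remodelling subunit, the values were 345.1, 572.4 and 262.4, and for px, a wing vein gene, 303.7, 438.7 and 324.0. The summit of px fell within 3 bp of 200 bp upstream in every replicate, but that of tou changed sides, at 21, 12 and -20 bp, so its call as upstream at 5 bp is uncertain. Further named upstream peaks were those of CG1888 (signal 783), Fkbp14 (730), a prolyl isomerase gene, ph-p (713), a Polycomb group gene, CG18549 (708) and larp (661), a gene of an RNA-binding protein. All of these were among the strongest 2239 regions of every replicate, as the rule for naming required.

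The strongest downstream peaks lay close to the TSS. Rlip, whose product binds the GTPase Ral, had a signal of 1310 with its summit on the TSS itself, at chromosome 3R, position 21017684. Its replicates gave 473.5, 563.9 and 265.8, at -8, -2 and 1 bp, so the side of this peak is not defined beyond its error. CG3732 had a signal of 759 at 4 bp, GstE13, a glutathione transferase gene, 627 at 72 bp, and FRG1 416 at 4 bp. Below them came ph-p (400) at 396 bp, Ufsp1 (357), a protease gene of the ubiquitin-like modifier UFM1, CG3386 (355), Hip1 (354), an endocytosis gene, CG31612 (325), Eip78C (317) and CG11961 (310). Eip78C encodes a nuclear receptor induced by ecdysone, the insect moulting hormone, and its replicates gave 109.2, 131.3 and 74.5. Apart from those of ph-p and CG31612, the named downstream summits lay within 100 bp of the TSS.

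Some genes held several summits. The 731 peaks had 655 nearest genes, 62 of which had more than 1 peak, and 15 had summits on both sides. At ph-p the upstream summit lay 470 bp before 1 TSS and the downstream summit 396 bp past another. The upstream peak had signals of 208.5, 315.6 and 208.5 in replicates 1, 2 and 3 and the downstream peak 160.7, 146.5 and 120.4. At Syx17, which encodes a syntaxin of autophagosome fusion and has 1 TSS, the summit 73 bp upstream had 210.3, 268.9 and 152.6 and that 127 bp downstream had 17.8, 52.5 and 63.2. The upstream summit was the stronger in every replicate at both genes. At mrj, a co-chaperone gene, the signals in the thresholded list were 412 upstream and 116 downstream, and at Drat 334 and 105. Of the 15 genes, 11 had their strongest upstream summit above their strongest downstream one in the thresholded list, 9 of them in all 3 replicates. The reverse held at ced-6 (143 upstream and 247 downstream), Dyro (106 and 194), Ama (146 and 171) and EcR (104 and 116), at 3 of these in all 3 replicates. The order at Dyro was turned in replicate 3. The strongest downstream summit counted for Dyro lay 9964 bp past the nearest protein-coding TSS, so it was not at the Dyro promoter.

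The limits of the rule cut through a continuous range of distances. Just inside 500 bp lay the summits at CG31612 (496 bp, signal 325) and by (500 bp, 137), and just outside those near lncRNA:CR44366 (501 bp, 110) and Sox21b (506 bp, 154). The genes with a divergent TSS just beyond 1000 bp were CG11961 (1007 bp) and CG9992 (1012 bp), and those just within it, counted as divergent, were l(1)G0469 (958 bp) and Pax (977 bp).

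Genes with a peak were long and had more TSSs than others. The 507 genes with an upstream peak had a median length of 6641 bp and the 115 with a downstream peak 6506 bp, against 2284 bp for all 9677 protein-coding genes without a divergent partner. A single TSS was annotated for 43.2%, 34.8% and 70.4% of them. A gene with more TSSs has more windows that can hold a summit, by construction. Among genes with 1 TSS, 257 with a peak had a median length of 3189 bp and 6557 without one had 1666 bp, and the replicates' own lists gave 3232, 3374.5 and 3086.5 bp for genes with a peak. A non-coding gene divergent to the TSS was present at 8.68% of genes with an upstream peak, 5.22% with a downstream peak and 4.46% of all. These differences between gene sets were not tested.

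Upstream windows had a lower G+C content than downstream windows in every replicate, and no motif passed the test between them. The G+C content of the 100 bp to each side of the summit was 36.5% upstream and 40.4% downstream, and the difference was -3.38, -5.26 and -3.34 percentage points in the replicates, a mean of -3.99 ± 1.10 (SD, n = 3; exact sign-flip permutation p = 0.25). The 8999 other genes without a divergent partner, none of them nearest to one of the 731 peaks, had 37.9% at 185 bp upstream and 44.4% at 102 bp downstream of the TSS, so their content too was lower upstream. Of 30 motifs, 0% passed the adjusted threshold between upstream and downstream windows (Fisher's exact test with Benjamini-Hochberg adjustment), and 4 had an unadjusted p under 0.05. These were the heat shock element, the Mad core, Motif 7 and the CREB site, each with an adjusted p of 0.325. GAGA was in 177 of 590 upstream windows and in 32 of 141 downstream windows (22.7%).

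Between the peaks of the promoter classes motif content differed. Divergent pairs without a peak were not examined, so whether the classes differ likewise where there is no peak was not tested. Of the 30 motifs, 12 (40%) differed in share between the 731 peaks at genes without a partner and the 541 at divergent pairs, 4 being more frequent at genes without a partner and 8 less. This comparison was added after the values were seen. GAGA was found in 209 of 731 windows (28.6%) at genes without a partner and in 81 of 541 at divergent pairs (odds ratio 2.27, adjusted p = 2.28e-07 by Fisher's exact test). In the replicates' own lists it was found in 28.0%, 31.0% and 26.8% at genes without a partner, against 14.6%, 16.6% and 13.2% at divergent pairs. The groups did not overlap, and the difference exceeded the spread of either. The lack of overlap does not single out GAGA, since it was also seen for motifs that did not pass the threshold. Among these were the heat shock element and the repeat CACACA. For CACACA the lists gave 19.4%, 19.5% and 16.4% at genes without a partner, against 13.4%, 13.5% and 10.8% at divergent pairs.

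The DRE showed the opposite. It was in 3.28% of windows at genes without a partner and in 11.3% at divergent pairs (odds ratio 0.267, Fisher's exact test, adjusted p = 2.63e-07), and its core in 29.7% and 43.3%. The lists of replicates 1, 2 and 3 gave 2.46%, 3.16% and 3.71% at genes without a partner, and 9.93% to 11.2% at divergent pairs. Motif 7, a core promoter element like Motif 6, was in 41 of 731 windows (5.61%) at genes without a partner and 81 of 541 at divergent pairs, and Motif 6 in 0.410% and 2.59%. Dref sites and these elements are typical of housekeeping promoters. Those 8999 other genes held the DRE in 1.42%, Motif 7 in 2.19% and GAGA in 23.6% of windows 185 bp upstream of their TSS.

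Smaller differences concerned other elements. More frequent at genes without a partner were the Initiator TCAGT (35.3% against 26.4%), the Mad core GCCGNCG (6.98% against 2.77%) and the E-box CATATG (8.62% against 4.07%). Less frequent were the TATA box TATAAA (33.4% against 43.6%), the E-box CAGCTG (9.03% against 14.6%) and the E-box CAGGTG (3.83% against 7.02%). The homeodomain core TAATTA was in 13.3% and 18.5%. All 12 had the same direction in 3 of 3 replicate lists. So had several motifs that were not called, among them the CREB site and the heat shock element. The thresholded list was made from the same replicates, so the same direction is no independent check. Several calls depended on the setting. Of 15 alternatives, the call was kept in 3 for CAGGTG, 5 for the Initiator, 6 each for CAGCTG and the homeodomain core and 9 for CATATG. For CAGGTG the adjusted p was 0.578 in the list of replicate 2 and 0.908 in that of replicate 3 (Fisher's exact test). The windows at genes without a partner had 37.3% G+C and those at divergent pairs 34.8%, and the part of this in the motif shares was not tested. With windows of 50 bp to each side, 5 of 30 motifs were called, and among the strongest 500 peaks 0 were, with 6 at an unadjusted p under 0.05.

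**Figure D4:**
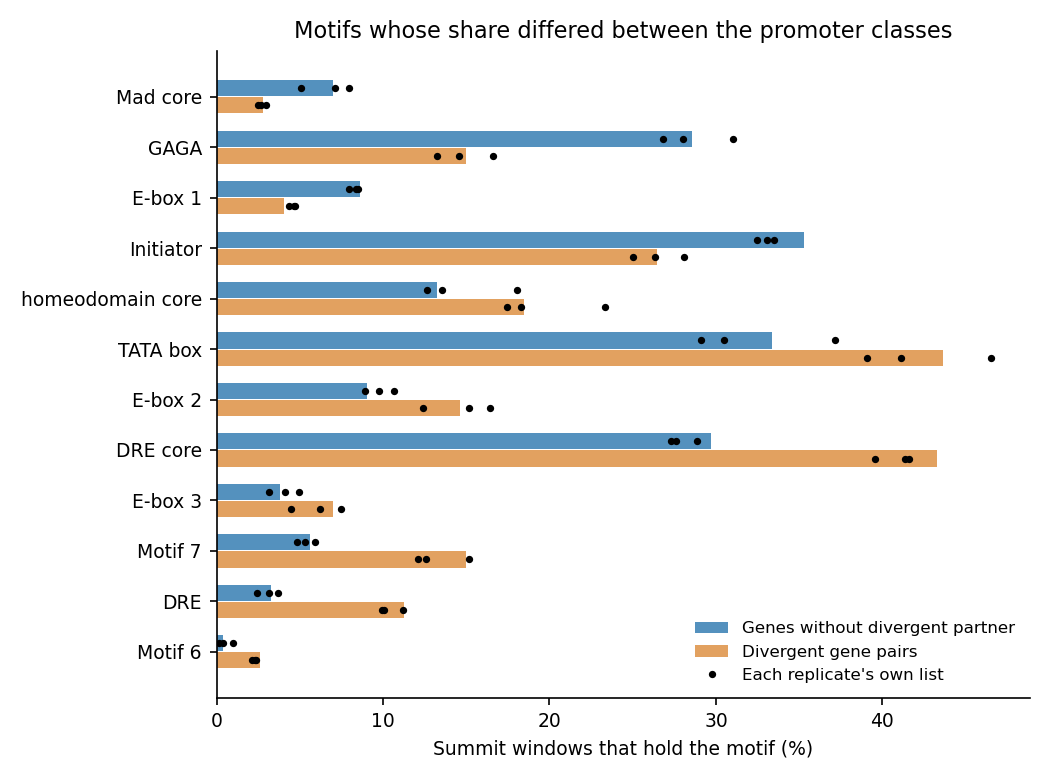
Percent of summit windows (100 bp to each side) holding each of the 12 motifs that differed, at genes without a divergent partner and at divergent pairs (bars, thresholded list; points, each replicate's own list). E-box 1 is CATATG, E-box 2 stands for CAGCTG, and E-box 3 for CAGGTG. The first 4 motifs from the top are more frequent at genes without a partner and the other 8 less.

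GAGA was more frequent at the TSS of these genes than at the summits. In windows of 100 bp to each side, centred 300, 200 and 100 bp upstream of the TSS, on it, and 100 bp downstream, GAGA was found for 30.9%, 35.7%, 45.0%, 43.5% and 25.5% of the 664 peaks with a protein-coding TSS within 500 bp. At the same places divergent pairs had 16.5%, 14.3%, 14.5%, 18.8% and 21.6%. Genes without a divergent partner and without a peak had 19.5%, 22.8%, 25.5%, 25.1% and 21.7%, over 9002 genes. At 100 bp upstream of the TSS the replicates gave 43.2%, 44.5% and 43.1% at genes without a partner, against 13.04% to 17.4% at divergent pairs. At genes with a peak and no partner the share was thus high just before and on the TSS, places that differed little, and 100 bp upstream it was 44.2% for those with an upstream summit and 49.1% for those with a downstream one. Over all 731 peaks, including 67 with their nearest protein-coding TSS farther than 500 bp away, the odds ratio there against divergent pairs was 5.002. Peaks that share a TSS repeat its window, so these windows are not independent and no p-value is given. The DRE at that place was in 3.46% of windows at genes without a partner, 13.8% at divergent pairs and 4.39% at genes without a peak.

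Gene lists were read against the share of all genes. Of the 9677 protein-coding genes without a divergent partner, 608 (6.28%) had a peak within 500 bp, 507 (5.24%) an upstream one and 115 (1.19%) a downstream one. The median signal of a gene's strongest peak was 153.7. The lists were described by counts and were not tested. The length and the number of TSSs of their genes, which differed between genes with a peak and all genes, were not taken into account.

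Signalling and hormone genes were among the lists with the highest shares. In the Notch pathway, by which neighbouring cells signal to each other, 6 of 17 genes had a peak, 5 upstream and 1 downstream, with a median signal of 139.9. They were the regulator numb, the channel-like gene bib, the ubiquitin ligase gene neur, the coactivator gene mam and the target genes E(spl)m3-HLH and E(spl)m7-HLH. At numb the replicates gave 67.8, 66.7 and 72.7, and at E(spl)m3-HLH 38.6, 38.4 and 77.7. Of 19 ecdysone and nuclear receptor genes 5 had a peak, with downstream summits at 4 of them, namely Eip78C, Eip75B, Hr78 and the ecdysone receptor gene EcR, and upstream ones at Hnf4 and EcR. In the replicates' own lists 4, 2 and 4 of these genes had a peak. The downstream peaks of Hr78 and EcR were among the strongest regions of only 1 replicate. Growth factor and morphogen signalling had 6 of 31, among them spi, an EGF receptor ligand, with 89.7, 90.1 and 101.1 in replicates 1, 2 and 3, and sgg, a kinase of Wingless signalling.

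Ribosomal protein genes had many peaks near the TSS. Of the 42 cytoplasmic ribosomal protein genes without a divergent partner, 13 had a peak, 9 upstream and 4 downstream, all within 74 bp of the TSS. RpL23A had the strongest, with 88.6, 100.4 and 63.0 in the replicates, followed by RpL30 and RpL24. In the replicates' own lists 13, 12 and 5 of these genes had a peak, so replicate 3 held fewer. None of the 15 mitochondrial ribosomal protein genes had one, and the 26 proteasome, 11 aminoacyl-tRNA synthetase and 8 autophagy genes had 0 too. In the replicates' own lists 1 autophagy gene had a peak in replicate 2 and 1 proteasome gene in replicate 3. The autophagy list does not hold Syx17, which had peaks. Of 47 oxidative phosphorylation genes 1 had a peak.

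Some lists of developmental and stress genes also had shares above that of all genes. Heat shock genes had 3 of 15 with a peak, all upstream, at the small heat shock protein genes Hsp27 and Hsp26 and at the co-chaperone gene stv, and Hsp27 gave 61.4, 79.4 and 123.9 in the replicates. Segmentation and homeotic genes had 4 of 38 (10.5%, against 6.28% of all genes), all upstream, at fkh, hth, tsh and bcd. The peaks at hth and tsh were among the strongest regions of only 2 replicates. Muscle structure genes had 4 of 29, also upstream, with Msp300 and sls, which encode large muscle scaffold proteins, the strongest. The neuronal RNA-binding gene elav had a peak 270 bp upstream with signals of 122.1, 164.1 and 134.4 in the replicates. No peak was found at the 110 cuticle protein or the 154 chemoreceptor genes.

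**Figure D5:**
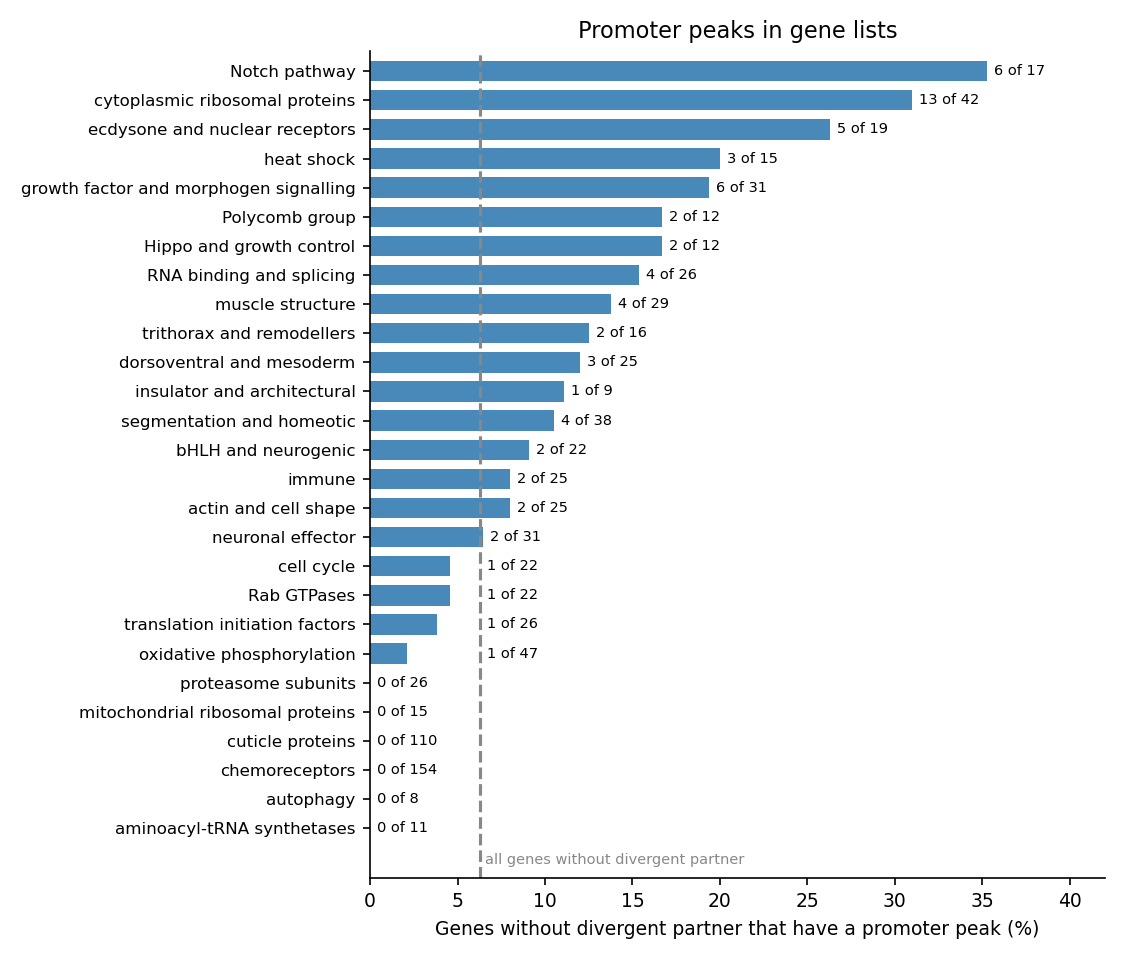
Percent of the genes of each list without a divergent partner that had a promoter peak, with the counts beside the bars. The dashed line is the 6.28% of all such genes. Notch pathway and cytoplasmic ribosomal protein genes stand highest, at 6 of 17 and 13 of 42, and 6 lists have 0.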

How the data were processed

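ChIP-seq peak lists of 3 biological replicates were used on build dm6. The authors called, according to the README files they deposited, peaks and background regions on each replicate and on the pooled alignments against 1 control file, and kept pooled regions past an optimal threshold of the irreproducible discovery rate. For the aligner, caller, threshold and versions, nothing is given in the sources used here. The deposited signal is the authors' value per region. Summit offsets deposited by the authors gave the positions, and their −log10 q values were left unused. Lists on dm3 were not used.

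TSSs came from Ensembl release 115, whose assembly is dm6, and sequence from RefSeq. Each replicate's strongest 2239 regions by signal were classed by the same rule, and overlaps needed at least 1 bp. Where several regions of a replicate overlapped a peak, the one with the nearest summit gave its signal and summit. Eligible bases were those of the genome that the rule would accept. Shares were compared by exact binomial and Fisher's exact tests, both two-sided, and replicate differences by exact sign-flip permutation. Benjamini-Hochberg adjustment covered 30 motifs, with a threshold of 0.05. The p-values measure counting error over peaks, not biological spread. The members, the 27 gene lists, the motifs and the tests were chosen with earlier results of these data known. Of 534 list symbols, 15 matched by synonym and 8 were unmatched.

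Named were the 12 upstream and 12 downstream peaks of highest signal found in the strongest regions of all 3 replicates, up to 6 genes with summits on both sides, up to 3 members per gene list by signal, peaks beside the 500 bp limit, and motifs past the threshold. Genes named beyond these, where a list had 6 or fewer with a peak, were chosen after their values were seen, as were the comparison of motifs with divergent pairs and the windows at fixed distances from the TSS. Scripts were tested on simulated data and run with Python 3.11.15, pandas 2.3.3, numpy 2.4.6, scipy 1.17.1 and matplotlib 3.10.9.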

Additional observations from a re-analysis of the deposited data

How the results depend on the processing

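Settings changed the windows, the partner rule, the peaks counted and the replicates used. The upstream share stayed above that of the bases in all 17 alternatives, between 75.9% with a 1000 bp window and 87.5% among the strongest 500 peaks. For this share, its odds ratio, the motifs and the gene counts, setting 1 replicate aside kept the thresholded peaks found in both other replicates. These 470 to 527 peaks still came from the list made from all 3 replicates. Such a selection favours upstream peaks, which were found in every replicate more often, so it does not show the effect of removing a replicate. The upstream share among them was 81.6% to 85.3%. The odds ratio of this share against divergent pairs turned to 0.997 with a 250 bp window. Among peaks found in both other replicates it was 1.32 to 1.56. The odds ratio for being found in all 3 replicates was 0 among the strongest 500 peaks (Fisher's exact test, p = 1) and 1.22 to 2.21 without 1 replicate. The G+C difference was -2.88 with windows of 200 bp to each side and -5.23 at genes with 1 TSS, and -3.36 to -4.32 without 1 replicate. The signal difference kept its sign in all 10 alternatives. No motif differed between upstream and downstream under any of 14 alternatives (0 to 5 at an unadjusted p under 0.05). For the comparison of motifs with divergent pairs, all alternatives were chosen after seeing the data. In it 5 motifs were called with windows of 50 bp to each side, 5 at genes with 1 TSS, 6 in the list of replicate 3 and 0 among the strongest 500. Among peaks found in both other replicates 4 to 8 were called. GAGA, DRE and Motif 7 were called in 14 of 15, the exception being the strongest 500, which hold fewer peaks, and of the other 9 motifs CAGGTG was called in the fewest, 3, and the DRE core in the most, 13. Genes with a peak were 1.79% among the strongest 500 and 4.09% to 4.50% with peaks found in both other replicates, since fewer peaks then count. The summit SD was 19.1 to 25.5 bp without 1 replicate. The cause of these changes was not tested except where fewer peaks are named. The depth of the replicates is unknown.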
